A study of Mus musculus with 18 samples.

Results

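The replication-dependent histone genes form clusters in the mouse genome and were examined here as a group, in wt cells and in 2 clones labelled as knockouts of the chromatin protein Hmga2. All genes whose symbol combines one of the Hist1 to Hist4 clusters with class h1, h2a, h2b, h3 or h4 were taken, without names marked as pseudogenes by -ps and with at least 10 counts over all libraries. The rule found 70 of the 45706 genes counted, 6 of linker histone H1 and 64 of the core histones. Of the core genes, 20 belonged to H2A, 19 to H2B, 12 to H3 and 13 to H4. Their totals over the 18 libraries ran from 203 counts for Hist1h2aj to 290407 counts for Hist1h4n. 1 further name, Hist3h2bb-ps with 1428 counts, was left out by the -ps condition, and no gene fell below the count limit.

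RNA was sequenced from total RNA of mouse induced pluripotent stem cells (iPSCs) of 3 lines, each at 0 h and 24 h, with 3 biological replicates in each of the 6 groups. The wt libraries came from 1 clone, KO#1 and KO#2 are single clones labelled as Hmga2 knockouts, and clone and genotype therefore cannot be told apart. At 0 h the cells grew over inactivated feeder fibroblasts in serum with leukaemia inhibitory factor and both inhibitors of 2i. The 24 h groups had been moved without feeders to a basement membrane matrix with Activin A and bFGF, which turns naive cells into epiblast-like cells (EpiLCs). Medium, feeders and cell state therefore changed together between the time points in all lines.

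Every nucleosome wraps DNA around a core of H2A, H2B, H3 and H4, and H1 binds where the DNA enters and leaves. The clustered genes supply these proteins mainly while DNA is replicated. Their mRNAs usually end in a short stem-loop instead of a poly(A) tail, which the stem-loop binding protein Slbp holds, and libraries of total RNA keep them. Pluripotent stem cells divide fast and spend much of their cycle in S phase, when these mRNAs are most abundant.

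The stem-loop was searched for after the stop codon of the annotated transcripts, as GG at the start of a pair of complementary arms that enclose a loop beginning with TTT. It was found in 42 of the 70 genes, at 21 to 58 bases from the stop codon with a median of 31.5. Of the genes, 52 had at least 40 bases annotated after the stop, so for the others the window was short or missing. The 42 genes held 6 forms of the element, of which the form in Hist1h1c occurred in 24 genes of H1, H2A, H2B and H3. All 7 genes with the form of Hist1h4c were H4 genes. 1 gene is shown for each form, since this element sets the group apart from polyadenylated mRNAs, with the paired arms in capitals.
Hist1h1c, H1: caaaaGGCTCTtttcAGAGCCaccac
Hist1h3f, H3: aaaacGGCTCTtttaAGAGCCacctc
Hist2h2ac, H2A: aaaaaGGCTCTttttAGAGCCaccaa
Hist1h4c, H4: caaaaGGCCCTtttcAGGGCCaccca
Hist1h4i, H4: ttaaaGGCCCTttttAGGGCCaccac
Hist1h4j, H4: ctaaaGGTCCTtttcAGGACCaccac

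The promoters differed between the classes in the short motifs they held. Windows of 300 bases, from 250 before to 50 after the start, matched 62 of the genes in RefSeq (GRCm38.p6). On either strand, CCAAT stood in all 6 H1, 18 H2A, 16 H2B and 10 H3 windows but in 3 of the 12 H4 windows, against 37.9% of all 27025 promoters in RefSeq. TATAAA was present in 56.5% of the histone windows and 14.2% of all promoters. The octamer ATTTGCAT, which is bound by Oct1, was found in 7 H2A and 6 H2B windows and in none of the other classes, against 1.75% of all promoters. Windows of neighbouring H2A and H2B genes can overlap, as those of Hist1h2ai and Hist1h2bl do, so the same letters can count for both classes. AAACACA, a motif known from H1 promoters, was in 5 of 6 H1, 2 of 18 H2A and 2 of 16 H2B windows. It was in no H3 or H4 window and in 7.14% of all promoters. None of the 4 motifs contains another on either strand, and a match is a description of these letters only. Below are a linker gene, an H2B gene with the octamer and the H4 gene with the largest difference between the KO#2-labelled libraries and wt, with matches to these 4 motifs in capitals. The window of Hist4h4 holds none of them.
Hist1h1c, chr13:23738557-23738856, plus strand: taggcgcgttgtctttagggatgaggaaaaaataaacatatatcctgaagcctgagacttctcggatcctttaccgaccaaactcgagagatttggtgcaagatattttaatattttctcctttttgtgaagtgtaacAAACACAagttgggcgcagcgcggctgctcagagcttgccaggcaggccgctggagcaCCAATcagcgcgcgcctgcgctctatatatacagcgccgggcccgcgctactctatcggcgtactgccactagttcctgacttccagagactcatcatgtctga
Hist1h2bg, chr13:23571150-23571449, plus strand: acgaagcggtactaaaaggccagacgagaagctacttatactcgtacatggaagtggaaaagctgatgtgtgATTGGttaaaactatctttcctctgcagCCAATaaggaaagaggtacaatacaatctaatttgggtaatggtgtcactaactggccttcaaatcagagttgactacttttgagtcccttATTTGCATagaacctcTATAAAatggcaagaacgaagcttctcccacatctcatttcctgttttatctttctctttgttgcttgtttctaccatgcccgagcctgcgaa
Hist4h4, chr6:136804382-136804681, minus strand: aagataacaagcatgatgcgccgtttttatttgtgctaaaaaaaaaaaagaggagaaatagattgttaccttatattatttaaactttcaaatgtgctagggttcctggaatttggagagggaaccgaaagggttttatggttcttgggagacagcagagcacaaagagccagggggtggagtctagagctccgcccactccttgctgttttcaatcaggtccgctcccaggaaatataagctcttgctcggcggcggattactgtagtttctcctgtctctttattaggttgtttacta

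Of the genes, 56 belong to the Hist1 cluster on chromosome 13. Of these, 23 lie in the run chr13:21715763-22043676 (GRCm38) and 30 in the run chr13:23531050-23934851. The Hist2 cluster on chromosome 3 held 11 genes, Hist3 on chromosome 11 held 2 and Hist4 on chromosome 6 held 1, Hist4h4. The annotation names 65 of the 70 as protein-coding and 2, Hist1h2aj and Hist1h2al, as pseudogenes. A second row with the symbol Hist2h2bb is annotated as the long non-coding RNA Gm42743, which overlaps Hist2h2bb on the same strand, and it is named Gm42743 here.

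Members of one class are so alike that reads can fit several of them. Of all stretches of 75 bases in a gene's annotated transcripts, the share found in no other annotated gene had a median of 99.3% in H1, 32.0% in H2A, 52.6% in H2B, 41.0% in H3 and 75.4% in H4. It was 0% for Hist2h2aa2 and Hist2h3c1 and under 50% for 29 of the 68 genes that could be examined. Counts of those genes are uncertain, since the methods name Salmon/StringTie for quantification but how reads that fit several genes were assigned is not given in the sources used here, and sums over a class are affected less. In addition, 27 genes overlap another annotated gene.

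Total counts per library lay between 3466436 and 23872837, with the smallest in wt replicate 1 at 0 h. Levels are given as CPM, the counts relative to the library total scaled by its TMM factor, and 3 counts corresponded to 0.116 to 0.984 CPM. Hmga2 itself ranged from 13.3 to 22.4 CPM in wt cells at 0 h and from 5.51 to 5.93 at 24 h. It ranged from 1.75 to 10.2 CPM in KO#1 at 0 h, from 0.871 to 3.67 in KO#1 at 24 h, and from 1.84 to 8.25 in the KO#2-labelled libraries at 0 h. At 24 h the KO#2-labelled libraries had 3.02, 3.48 and 10.5 CPM in rising order, 2 below and 1 above the wt values, and their label is therefore quoted throughout. A gene is termed called where edgeR's quasi-likelihood test over all genes gave a Benjamini-Hochberg adjusted p under 0.05. Against wt, Hmga2 was called lower in the KO#2-labelled libraries at 0 h (log2 -1.90 ± 0.62, SE, edgeR adjusted p = 0.023) and not at 24 h (-0.04 ± 0.60), and it was not called in KO#1 at 0 h (-1.71 ± 0.63) or 24 h (-1.36 ± 0.64). These are RNA levels, and the protein was not analysed here. The study includes an Hmga2 western blot of wt#1, wt#2, KO#1 and KO#2, which these RNA values do not test. The share of counts on protein-coding genes, which include most histone genes, also separated groups. It was 52.6% to 66.7% in wt and 62.0% to 77.4% in KO#1 at 0 h, 41.6% to 63.4% in wt and 41.3% to 63.1% in KO#1 at 24 h. In the KO#2-labelled libraries it was 76.3% to 79.1% at 0 h and 82.3% to 84.7% at 24 h. The 5 most abundant genes, led by Gm26917, Rn7s1 or Rn7s2, took 28.8% to 46.8% of the counts in wt and 9.72% to 11.6% in the KO#2-labelled libraries at 24 h. This composition moved with the histone levels below, and its part in them was not tested.

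Most core histone genes rose during 24 h of induction in wt, 51 of 64 with 1 that fell, and in KO#1, 54 of 64 with 1 that fell. Of the 6 linker genes, 3 rose in KO#1 and none in wt, and no core gene was called in the KO#2-labelled libraries. Of all genes tested, 26.0% rose and 24.7% fell in wt, 20.1% and 20.6% in KO#1 and 12.7% and 13.3% in the KO#2-labelled libraries. Summed over the 64 core genes, wt libraries had 12386, 17183 and 12354 CPM at 0 h and 33556, 52038 and 32277 CPM at 24 h. KO#1 libraries had 7183, 15038 and 11401 CPM at 0 h and 45717, 56179.8 and 29676 CPM at 24 h. In both lines all 3 libraries at 24 h lay above all 3 at 0 h. The KO#2-labelled libraries had 4235, 8785 and 6587 CPM at 0 h and 5533, 5485 and 9051 CPM at 24 h, and these ranges overlapped. In bulk RNA, fewer cells of a type and less RNA per cell cannot be told apart.

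**Figure D1:**
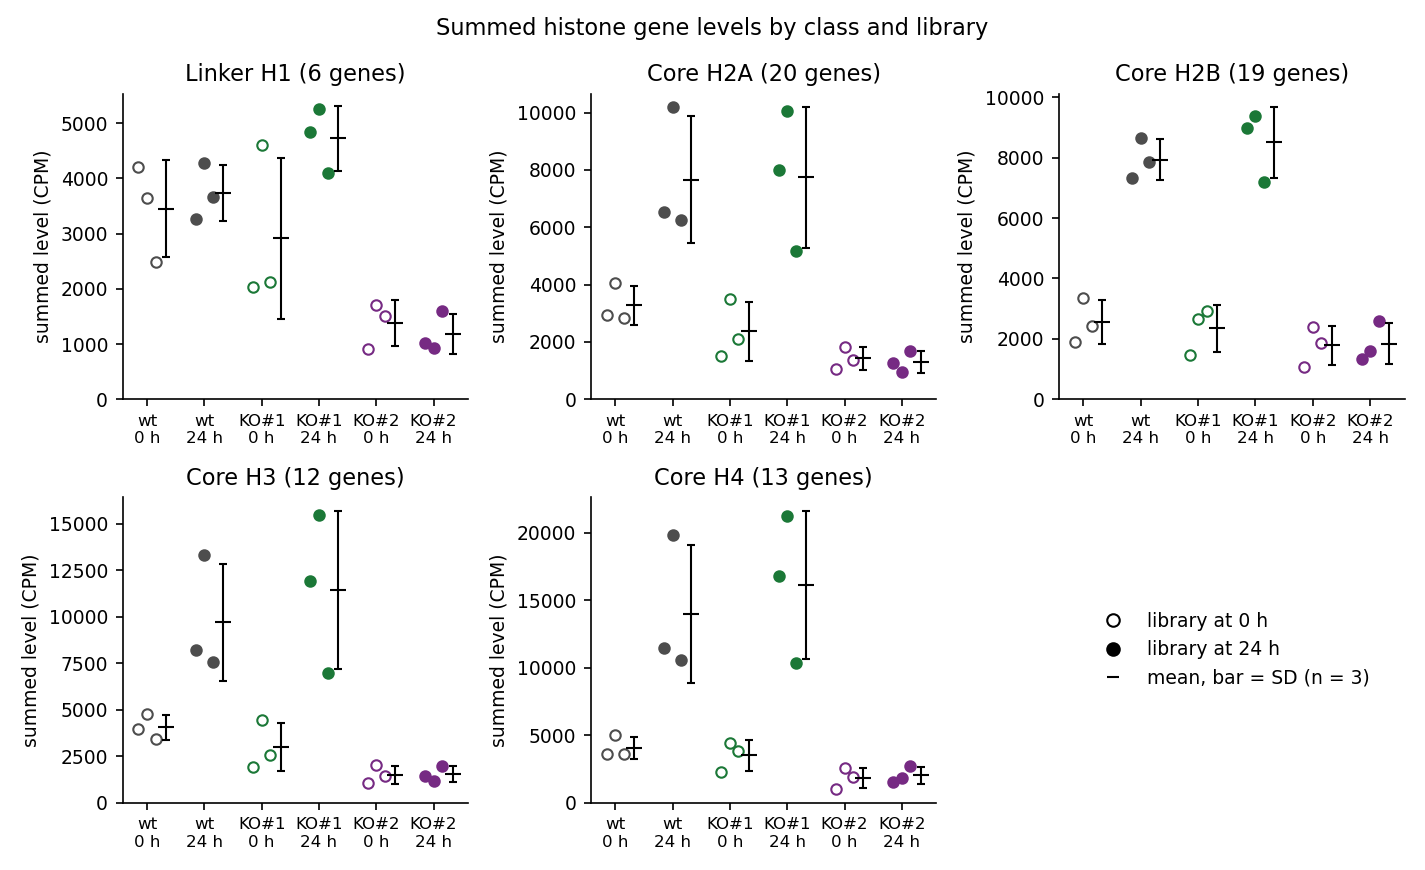
Summed level in CPM (y axes, linear from 0) of the genes of each histone class in every library, with open points for 0 h, filled points for 24 h, and the mean with its SD over 3 libraries beside them. The core classes are higher at 24 h in wt and KO#1 libraries, where the summed H4 level reaches 19858 and 21267 CPM, while the H1 panel shows overlapping times in wt.

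In wt cells, 51 of the 70 genes rose and 1 fell at 24 h. Of all 16619 genes tested, 26.0% were called higher and 24.7% lower. The median log2 fold change was 1.46 over the histone genes and 0.03 over all genes tested. By class the medians were 1.29 for H2A, 1.74 for H2B, 1.25 for H3 and 1.75 for H4, and 13 of 20, 17 of 19, 10 of 12 and 11 of 13 genes rose. The linker class had a median of 0.18, and 0 of its 6 genes were called by edgeR or by DESeq2, with 0 at an unadjusted p under 0.05. In KO#1 cells, 57 genes rose and 1 fell, against 20.1% of all genes called higher and 20.6% lower, with a median of 1.81 over the histone genes and 0.004 over all genes. The class medians were 1.73 for H2A, 1.79 for H2B, 2.13 for H3 and 2.35 for H4 and 0.77 for H1. wt and KO#1 share no library in these comparisons, and 48 genes rose in both, 3 in wt but not called in KO#1 and 9 the other way. The overlap over all genes was not computed, so whether that of the histone genes is larger was not tested. Scaled by library size only, without TMM factors, the median over all genes moved to -0.58 in wt and -0.78 in KO#1, that of the core genes to 0.90 and 1.03, and that of the linker genes to -0.41 in wt, where its sign turned, and -0.001 in KO#1. Under that scaling 30 histone genes rose in wt and 37 in KO#1, none of them linker genes. The test of the difference between the responses called none of the 70 genes, with 1 at an unadjusted p under 0.05 and 0 called by DESeq2, against 0.253% of all genes called higher and 0.138% lower in that test.

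In the KO#2-labelled libraries, 1 of 70 genes rose, Hist1h1t, and none fell, with 5 at an unadjusted p under 0.05 and 1 called by DESeq2. None of the 64 core genes was called by edgeR or DESeq2, with 3 at an unadjusted p under 0.05. The count of 1 became 0 without replicate 1 or 3 labelled KO#2 at 0 h or replicate 3 at 24 h. Of all genes, 12.7% were called higher and 13.3% lower there, fewer than the 26.0% and 24.7% in wt. Whether smaller changes of the histone genes would have been called was not tested. The median over the histone genes was 0.03, and the class medians lay between -0.10 for H2A and 0.14 for H2B. The difference of this response from that of wt was negative for 68 of 70 genes, with a median of -1.39 over the histone genes and -0.02 over all genes. 46 of the 70 genes passed an unadjusted p under 0.05, against 3920 of all 16619 genes tested. After adjustment 2 were called lower, Hist2h2bb and Gm42743, against 0.951% of all genes called higher and 0.517% lower. With DESeq2 it was 22, where 1444 of all genes were called. It fell to 0 without any 1 of wt replicate 3 at 0 h, replicates 2 or 3 labelled KO#2 at 0 h, any of the 3 wt libraries at 24 h, or replicates 1 or 2 labelled KO#2 at 24 h. Without replicate 3 labelled KO#2 at 24 h it was 15, without wt replicate 1 at 0 h it was 1, and without wt replicate 2 or replicate 1 labelled KO#2 at 0 h it was 4.

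**Figure D2:**
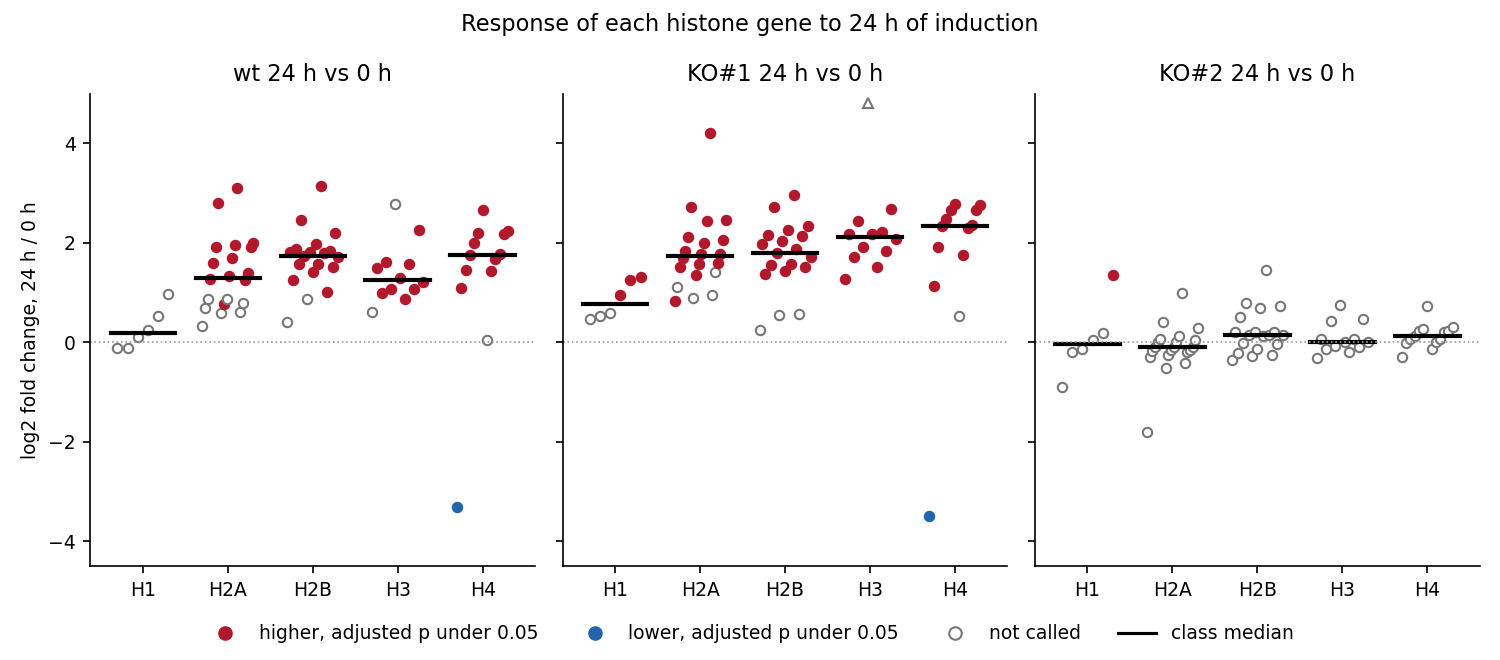
Log2 fold change at 24 h relative to 0 h (y axis) of each histone gene by class, for wt, KO#1 and KO#2-labelled libraries, with called genes filled and the class median as a bar. Most core genes lie near or above 1 in wt and KO#1, with medians from 1.25 to 2.35, and near 0 in the KO#2-labelled libraries, and the triangle marks Hist2h3c1, off the scale with 0 counts in all KO#1 libraries at 0 h.

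Within a library, the ratio of core to linker counts does not depend on how the library is scaled. It was 2.94, 4.70 and 4.97 in wt at 0 h and 10.3, 12.2 and 8.81 at 24 h, with means of 4.20 ± 1.10 and 10.4 ± 1.68 (SD, n = 3). In KO#1 it was 3.53, 3.27 and 5.39 before induction and 9.46, 10.7 and 7.24 after 24 h. The KO#2-labelled libraries gave 4.63, 5.13 and 4.36 before induction and 5.39, 5.87 and 5.67 after 24 h. At 0 h the 3 lines overlapped in this ratio, and at 24 h every wt and KO#1 library lay above every library labelled KO#2. The KO#2-labelled libraries also did not overlap between times, with means of 4.71 ± 0.391 and 5.65 ± 0.240 (SD, n = 3). Counts on genes of different length were summed, so the ratio describes a shift between classes and not numbers of molecules.

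Restricted to the 33 core genes with at least 50% unique stretches, the ratio to the linker genes had a mean of 2.08 ± 0.633 in wt at 0 h and 5.58 ± 1.03 at 24 h (SD, n = 3). It was 2.13 ± 0.756 and 4.97 ± 1.04 in KO#1, and 2.43 ± 0.237 and 2.93 ± 0.304 in the KO#2-labelled libraries (SD, n = 3). Of these 33 genes, 29 rose in wt, 30 in KO#1 and 0 in the KO#2-labelled libraries, against 26.0%, 20.1% and 12.7% of all genes tested. Of the 38 core genes with a stem-loop found, 34 rose in wt, 34 in KO#1 and 0 in the KO#2-labelled libraries.

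**Figure D3:**
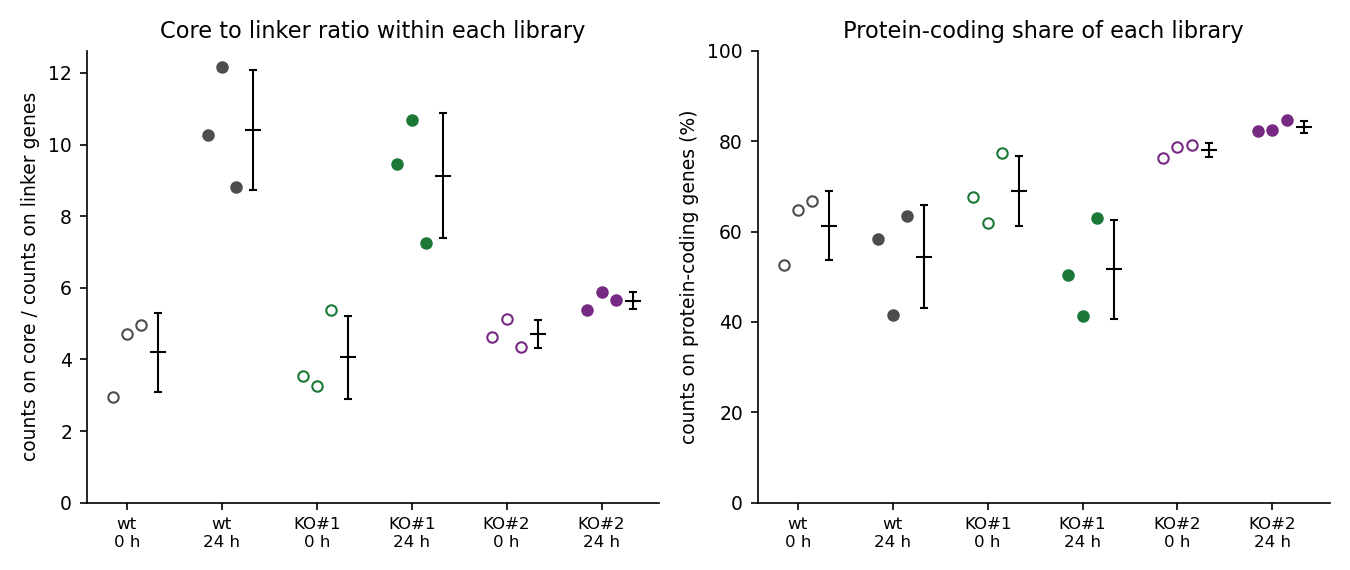
Left, counts on the 64 core genes divided by counts on the 6 linker genes in each library. Right, percent of counts on protein-coding genes in the same libraries, with mean and SD over 3 libraries. The ratio at 24 h is 7.24 to 12.2 in wt and KO#1 and 5.39 to 5.87 in the KO#2-labelled libraries, and the protein-coding share at 24 h is 41.3% to 63.4% and 82.3% to 84.7%.

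Among linker genes, Hist1h1c, an H1 gene that is also expressed outside S phase in many tissues, had 1154, 1273 and 802 CPM in wt at 0 h and 825, 1463 and 705 CPM at 24 h. Its log2 fold change in wt was -0.11 ± 0.40 (SE, edgeR adjusted p = 0.84), and the groups overlapped. Hist1h1a had 786, 804 and 642 CPM at 0 h and 811, 855 and 997 CPM at 24 h in wt. Those wt groups did not overlap, but the log2 fold change of 0.26 ± 0.33 (SE) was not called. In KO#1, Hist1h1a went from 367, 815 and 455 CPM to 1179, 904 and 1084 CPM and rose by 0.95 ± 0.33 on the log2 scale (SE, edgeR adjusted p = 0.029).

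Hist1h1b rose in KO#1 from 197, 380.2 and 342 CPM to 779, 707 and 701 CPM, by 1.25 ± 0.35 on the log2 scale (SE, edgeR adjusted p = 0.0087). Hist1h1d and Hist1h1e were not called at 24 h in any line, with log2 fold changes from -0.19 to 0.59. Hist1h1t, the testis-specific H1, had low levels of 1.17 to 23.4 CPM. It rose in KO#1 by 1.31 ± 0.50 and in the KO#2-labelled libraries, from 2.56, 3.55 and 4.08 to 6.38, 6.11 and 13.4 CPM, by 1.35 ± 0.49 on the log2 scale (SE, edgeR adjusted p = 0.049). The last call was lost without any 1 of the 3 libraries labelled KO#2 at 0 h or replicate 3 at 24 h, with values between 0.89 and 1.5. The 3 linker calls in KO#1 fell to 0 without KO#1 replicate 1 at 0 h and to 1 without KO#1 replicate 1 at 24 h.

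H4 genes had the highest class median in KO#1 and, with H2B, in wt. Hist1h4a had 228, 415 and 361 CPM in wt at 0 h and 1593, 3474 and 1313 CPM at 24 h. KO#1 had 208, 335 and 561 CPM at 0 h and 2542, 3533 and 1379 CPM at 24 h. Levels at 24 h were separate from those at 0 h in both lines, 6.35-fold higher in wt and 6.74-fold in KO#1 (log2 2.67 ± 0.49 and 2.75 ± 0.49, SE). The KO#2-labelled libraries had 141, 367 and 214 CPM at 0 h and 204, 299.6 and 393 CPM at 24 h, which overlapped. Hist1h4n, of which 16.6% of stretches are unique, rose from 232, 841 and 495 CPM to 2027, 3472 and 1891 CPM in wt.

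Among H3 genes, Hist1h3e had 602, 656 and 470.0 CPM in wt at 0 h and 1045, 1489.6 and 919.7 CPM at 24 h, a rise of 1.00 ± 0.36 (log2, SE, edgeR adjusted p = 0.026). Hist1h3f rose from 368, 625 and 427 CPM to 1053, 2033 and 890.5 CPM, by 1.48 ± 0.44 (log2, SE). Neither pair of groups overlapped. In the KO#2-labelled libraries, Hist1h3e had 140.0, 295 and 205 CPM at 0 h and 195, 172 and 274 CPM at 24 h, without a call.

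Among H2B genes, Hist1h2bg had 224, 529 and 436 CPM in wt at 0 h and 945, 1032 and 849.6 CPM at 24 h, a rise of 1.25 ± 0.35 (log2, SE, edgeR adjusted p = 0.0068). Hist2h2bb rose from 264, 476 and 303 CPM to 1189, 1361 and 1254 CPM in wt, by 1.87 ± 0.35 (log2, SE). Its 24 h levels in KO#1, 1041, 1109 and 817 CPM, were also above the 0 h levels of 225, 381 and 405 CPM. The KO#2-labelled libraries had 195, 437 and 310.4 CPM at 0 h, overlapping wt, and 159, 253 and 368 CPM at 24 h. Hist1h2bh rose 4.55-fold in wt and 7.74-fold in KO#1 and has no entry in GENCODE M21, from which the transcripts were taken. Hist3h2ba, at 1.97, 3.49 and 5.00 CPM in wt at 0 h and 20.9, 40.6 and 36.9 CPM at 24 h, had the largest rise in wt, 3.14 ± 0.66 (log2, SE), and its log2 fold change of 0.56 ± 0.61 (SE) in KO#1 was not called.

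Among H2A genes, Hist1h2ap had 430.0, 582 and 335 CPM in wt at 0 h and 1054, 1676 and 823 CPM at 24 h, a rise of 1.40 ± 0.41 (log2, SE, edgeR adjusted p = 0.0088). Of its stretches, 7.35% are unique. Hist1h2aa, with all stretches unique, rose from 0.656, 5.05 and 2.59 CPM to 17.3, 34.5 and 12.5 CPM in wt. Hist1h2ao, with 6.90% unique, had 19, 0 and 0 counts in wt at 0 h and 157, 108 and 177 at 24 h, and its call was lost with DESeq2 and without wt replicate 2 or 3 at 0 h or wt replicate 2 at 24 h, with log2 fold changes between 2.15 and 3.01. In KO#1, Hist1h2aj had 0, 0 and 3 counts at 0 h and 15, 15 and 47 at 24 h, at least 4.66-fold higher when set against the mean CPM of 3 counts per library. That call was lost without KO#1 replicate 1 or 2 at 0 h or replicate 3 at 24 h. The fitted log2 values were then between 3.68 and 3.93, and they rest on the same counts of at most 3 at 0 h.

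Hist1h4m was the 1 gene called lower at 24 h, in wt and in KO#1. It lies at chr13:21811746-21812147, and 11.0% of its stretches are unique. Its wt levels at 0 h were 156, 18 and 1.00 CPM and those at 24 h were 4.11, 9.32 and 4.02 CPM, and the groups overlapped. KO#1 had 46.7, 165 and 1.23 CPM at 0 h and 7.64, 5.62 and 5.29 CPM at 24 h, again with overlap. The log2 fold changes were -3.31 ± 1.22 in wt and -3.50 ± 1.22 in KO#1 (SE, edgeR adjusted p = 0.031 and 0.029). Without wt replicate 1 at 0 h the value in wt was -0.77, and without KO#1 replicate 2 at 0 h that in KO#1 was -1.93, both without a call. The call was also lost without wt replicate 1 (-3.13) or 3 (-3.14) at 24 h and without KO#1 replicate 1 (-3.69), 2 (-3.45) or 3 (-3.40) at 24 h.

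By cluster, 38 of 56 Hist1 genes, 10 of 11 Hist2 genes, both Hist3 genes and Hist4h4 rose in wt, against 26.0% of all genes. The median log2 fold change in wt was 1.08 for the 23 Hist1 genes of the first run and 1.46 for the 30 of the second, which holds the linker genes Hist1h1a, Hist1h1c, Hist1h1d, Hist1h1e and Hist1h1t. In KO#1 these medians were 1.70 and 1.94, and in the KO#2-labelled libraries they were -0.10 and 0.07. Hist4h4 had 91.2, 165 and 131 CPM in wt at 0 h and 454, 929 and 401 CPM at 24 h, 4.60-fold higher. In KO#1 it was 6.33-fold higher at 24 h. Outside Hist1 the called genes in wt were Gm42743, Hist2h2aa1, Hist2h2aa2, Hist2h2ab, Hist2h2ac, Hist2h2bb, Hist2h2be, Hist2h3b, Hist2h3c2, Hist2h4, Hist3h2a, Hist3h2ba and Hist4h4, with log2 fold changes from 0.76 for Hist2h2aa2 to 3.14 for Hist3h2ba. The same genes apart from Hist2h2be and Hist3h2ba rose in KO#1, from 0.83 for Hist2h2aa2 to 2.66 for Hist4h4. At 24 h all 13 were lower in the KO#2-labelled libraries than in wt, where 61 of the 70 histone genes and 16.0% of all genes were lower, but they had been chosen for their rise in the same wt libraries. The difference between clusters was not tested.

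In comparison with wt, the KO#2-labelled libraries had lower levels of most histone genes at 24 h and of 38 at 0 h. At 0 h, 38 of 70 genes were lower and 2 higher, against 16.6% and 21.5% of all genes tested. With library sizes alone 22 were lower and 5 higher, and without replicate 1 labelled KO#2 25 were lower and 4 higher. At 24 h, 61 were lower and 2 higher, against 16.0% and 21.3%. The 38 genes lower at 0 h were all among the 61 at 24 h, and the overlap over all genes was not computed. These tests share no library, but they share both clones and the fit. The median log2 fold change over the histone genes was -1.16 at 0 h and -2.33 at 24 h, while over all genes it was 0.10 and 0.20. Of the core classes at 24 h, 16 of 20 H2A, 17 of 19 H2B, 11 of 12 H3 and 11 of 13 H4 genes were lower, with medians of -2.60, -1.97, -2.61 and -2.72. Scaled by library size only, the medians at 24 h were 1.24 over all genes, -1.34 over the core genes and -0.44 over the linker genes. A change of scaling moves all genes of a library by about the same amount, so it cannot test the gap between them. In the KO#2-labelled libraries the protein-coding share was higher than in any wt library at the same time, and its part was not tested.

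All 6 linker genes were lower in the KO#2-labelled libraries at both times, against 16.6% of all genes at 0 h and 16.0% at 24 h. Their median log2 fold change was -1.33 at 0 h and -1.46 at 24 h, and for the core genes it was -1.12 and -2.44. Hist1h1c had 338, 564 and 465 CPM labelled KO#2 at 0 h and 225, 213 and 294 CPM at 24 h, below every wt library, with a difference of -2.03 ± 0.42 at 24 h (log2, SE, edgeR adjusted p = 0.0012). At 0 h, the linker count of 6 was 3 without wt replicate 1 and 2 without replicate 1 labelled KO#2. With library sizes alone, 1 linker gene was called lower at 0 h and 2 at 24 h.

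The largest falls at 24 h were those of Hist4h4, Hist1h4c, Hist2h2ac and Hist1h2ag. Hist4h4 had 31.5, 30.1 and 69.5 CPM in the KO#2-labelled libraries, 13.6-fold below wt (log2 -3.77 ± 0.48, SE, edgeR adjusted p = 2.7e-05). Hist1h4c had 96.8, 136 and 182 CPM against 1153, 2213 and 1117 CPM in wt, 10.8-fold lower. Hist2h2ac had 34.4, 41.0 and 67.2 CPM against 462, 549.7 and 525 CPM, 10.8-fold lower. Hist1h2ag had 34.2, 26.7 and 57.8 CPM against 339.6, 564 and 287 CPM, 10.0-fold lower. In each of these 4 genes the groups did not overlap. Among the largest falls at 0 h were Hist1h2af, with 30.8, 36.9 and 41.8 CPM against 196, 178 and 95.6 CPM in wt, and Hist1h4k, with 61.2, 93.4 and 107 CPM against 539, 359 and 219 CPM. Their log2 fold changes were -2.10 ± 0.48 and -2.09 ± 0.40 (SE).

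Few histone genes were called between KO#1 and wt, close to the shares of all genes called. At 0 h, 2 of 70 genes were higher and 2 lower, against 3.99% and 2.68% of all genes tested, and the median over the histone genes was -0.26. The count of 4 was 2 without wt replicate 3. At 24 h, 4 were higher and 2 lower, against 6.25% and 3.61%, with a median of 0.19. With the replicate number as a block, since the numbers were taken to pair these samples, 4 were higher and 5 lower. Without replicate 2 of both groups, the libraries of lowest protein-coding share, the count of 6 was 3. None of the 6 linker genes was called at either time by edgeR or DESeq2, with 1 at 0 h and 0 at 24 h at an unadjusted p under 0.05. Of the Hist2 genes, 0 were higher and 2 lower at 24 h, with a negative log2 fold change in all 11 and a median of -0.92, while 46 of 56 Hist1 genes had a positive one. The difference between the clusters was not tested.

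**Figure D4:**
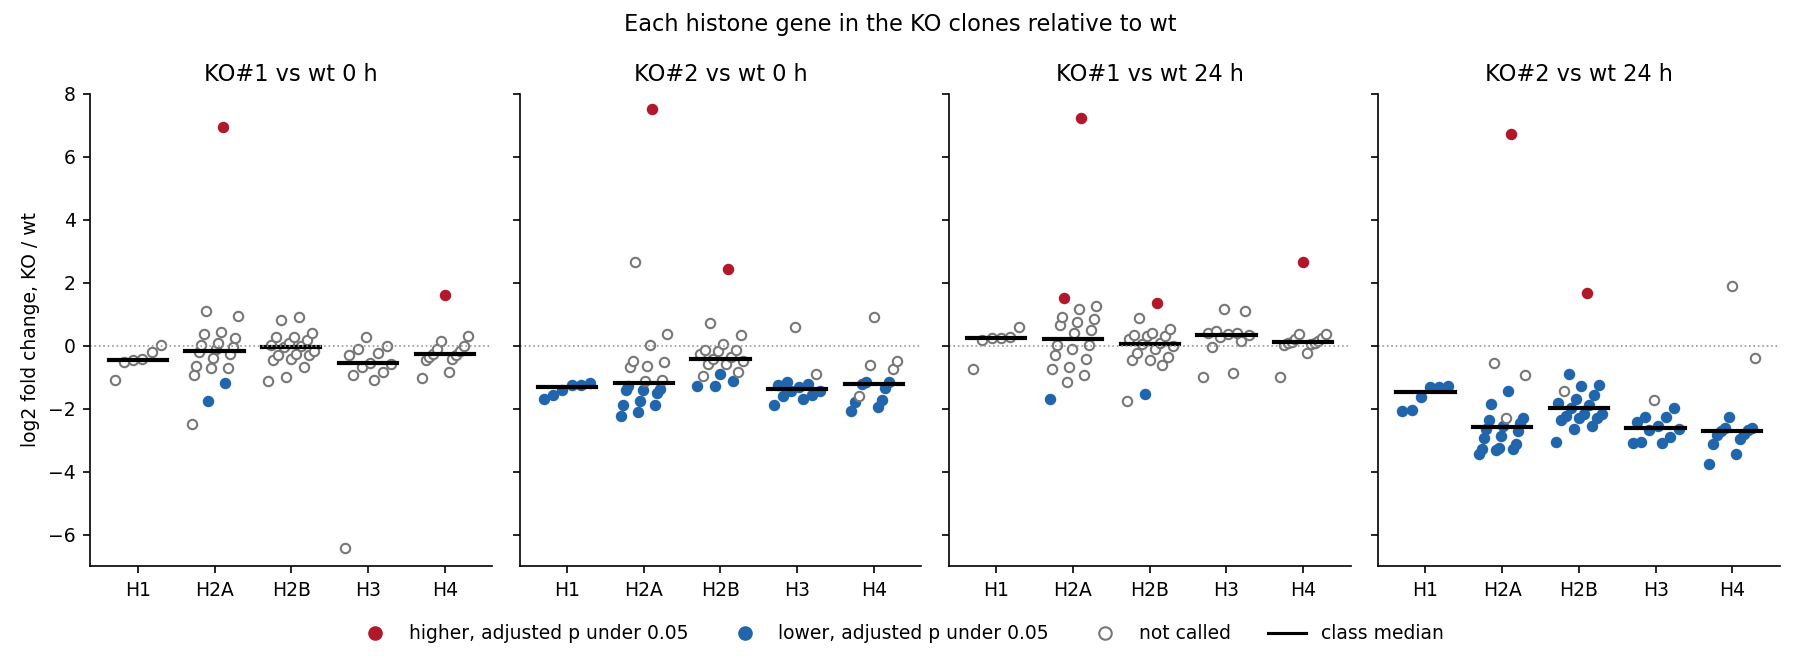
Log2 fold change relative to wt (y axis) of each histone gene by class, for KO#1 and the KO#2-labelled libraries at 0 h and 24 h, with called genes filled and the class median as a bar. The libraries labelled KO#2 at 24 h lie below 0 in 67 of 70 genes, the classes of KO#1 lie around 0, the point near 7 in each panel is Hist1h2al, and the lowest point of KO#1 at 0 h is Hist2h3c1, with 0 counts in those KO#1 libraries.

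Hist1h2al was at or below 1.97 CPM in every wt library and at or above 64.1 CPM in every KO#1 and KO#2-labelled library. It is an H2A gene annotated as a processed pseudogene at chr13:51202727-51203065 on the minus strand, far from both runs of Hist1, and it overlaps Gm44341 on the other strand. The wt libraries had 6, 7 and 4 counts at 0 h and 13, 18 and 14 at 24 h. KO#1 had 492, 537 and 1502 counts at 0 h and 1818, 1729 and 2855 at 24 h, and the KO#2-labelled libraries had 2149, 4018 and 2581 at 0 h and 1689, 2638 and 3605 at 24 h. Against wt, the log2 fold change was 6.92 ± 0.52 in KO#1 and 7.5 ± 0.53 in the KO#2-labelled libraries at 0 h, and 7.21 ± 0.48 and 6.72 ± 0.48 at 24 h (SE). The edgeR adjusted p-values were 9.4e-08, 9.0e-08, 1.9e-08 and 4.7e-08. Both clones were set against the same wt libraries. It was not called between times in any line. Of its stretches 54.3% are unique and the others are shared with Hist2h2aa1, Hist2h2aa2, Hist2h2ab or Hist2h2ac, of which Hist2h2aa2 and Hist2h2ac were lower in KO#1 at 0 h. The part of shared reads was not tested, and how reads were assigned by strand is not given in the sources used here.

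Hist1h4i, a protein-coding H4 gene at chr13:22040636-22041362, was higher in KO#1 than in wt at both times. At 24 h it had 1007, 1296 and 594 CPM in KO#1 against 126, 206 and 125 CPM in wt, 6.34-fold higher (log2 2.66 ± 0.47, SE, edgeR adjusted p = 0.0011). At 0 h it had 99.2, 248 and 173 CPM against 33.1, 88.0 and 47.5 CPM, without overlap (log2 1.61 ± 0.46, SE, edgeR adjusted p = 0.039). The call at 0 h was lost without wt replicate 1 (1.36) or 3 (1.5) or KO#1 replicate 2 (1.27) or 3 (1.61). The KO#2-labelled libraries had 83.6, 99.9 and 165 CPM at 24 h, overlapping wt, without a call.

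Hist2h2aa2, a gene of the Hist2 cluster at chr3:96239749-96240276 with no unique stretch, was lower in KO#1. It had 188, 378 and 240.0 CPM in KO#1 against 901, 1024 and 819.8 CPM in wt at 0 h, and 425, 534 and 472 against 1229, 1845 and 1587 CPM at 24 h. The log2 fold changes were -1.77 ± 0.30 and -1.70 ± 0.30 (SE, edgeR adjusted p = 0.0012 and 0.0011). Hist2h2ac, with 54.5, 97.3 and 118 CPM in KO#1 at 0 h, was lower by 1.19 ± 0.33 on the log2 scale, a call lost without any 1 of the wt libraries or KO#1 replicate 1 or 2, with values from -1.28 to -0.93.

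Also at 24 h, Hist1h2bl had 590.5, 743 and 482 CPM in KO#1 against 207, 254 and 249 CPM in wt, and Hist1h2ae had 447, 554 and 214 against 134, 198 and 92.7 CPM. The log2 fold changes were 1.35 ± 0.30 and 1.51 ± 0.46 (SE, edgeR adjusted p = 0.0063 and 0.044). Hist2h2be was low, with 1.76, 1.23 and 2.24 CPM in KO#1 against 6.81, 4.91 and 3.83 CPM in wt, and was lower by 1.55 ± 0.40 (log2, SE). The Hist1h2ae call was lost without wt replicate 1 or 3 or KO#1 replicate 1 or 2, with values from 1.25 to 1.5. The Hist2h2be call was lost without wt replicate 1 or 2 or KO#1 replicate 1 or 2, with values from -1.56 to -1.28. Hist1h2bq, with 3.92% unique stretches and at most 5.53 CPM, was higher in the KO#2-labelled libraries at both times, by 2.44 ± 0.52 and 1.67 ± 0.48 (log2, SE). The second call was lost without wt replicate 3 at 24 h (1.33).

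**Figure D5:**
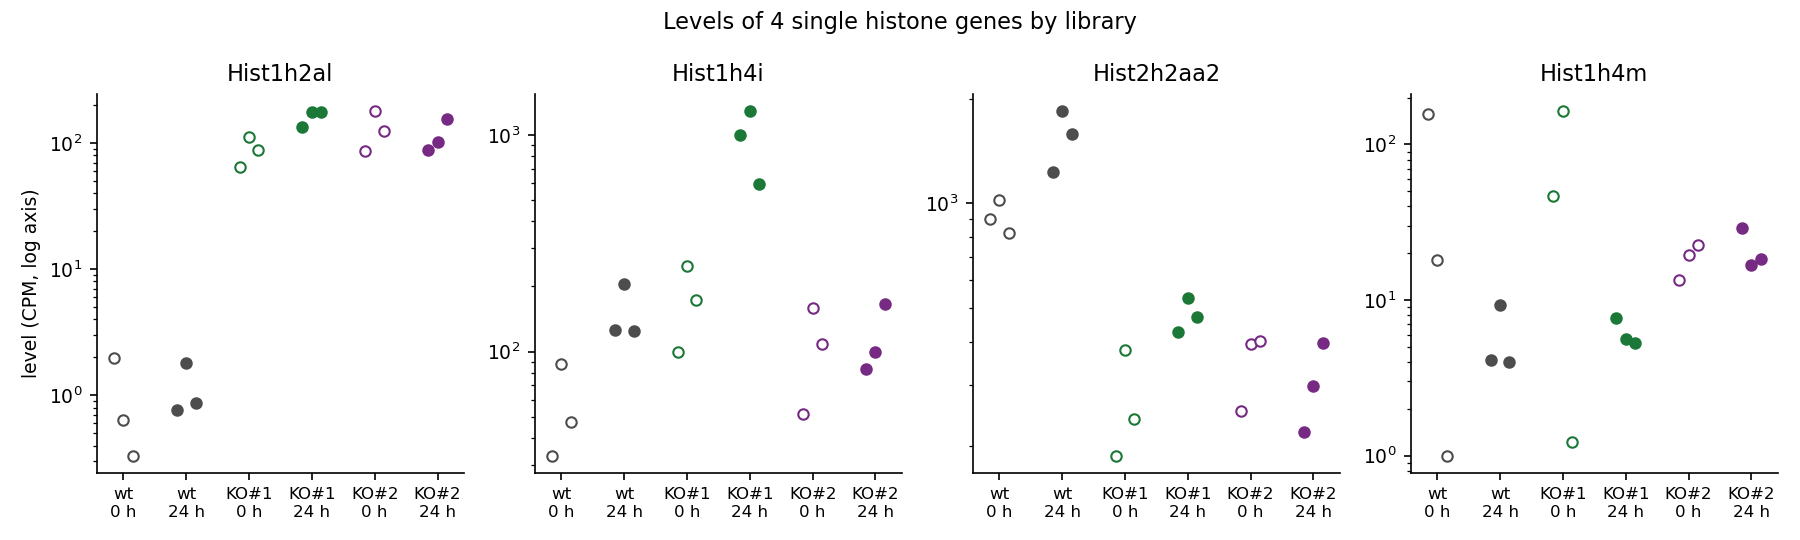
Level in CPM (y axes, logarithmic) of Hist1h2al, Hist1h4i, Hist2h2aa2 and Hist1h4m in each library, with open points for 0 h and filled points for 24 h. Hist1h2al separates wt (0.334 to 1.97 CPM) from the KO#1 and KO#2-labelled libraries (64.1 to 181 CPM), and Hist1h4m spreads from 1.00 to 156 CPM within wt at 0 h.

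Genes that work on histones or their mRNAs were followed as fixed lists, beside the shares of all genes called higher and lower at 24 h, 26.0% and 24.7% in wt, 20.1% and 20.6% in KO#1 and 12.7% and 13.3% in the KO#2-labelled libraries. Of 16 histone mRNA processing genes tested, 10 rose and 4 fell in wt at 24 h, 7 rose and 2 fell in KO#1, and 5 rose and 1 fell in the KO#2-labelled libraries. Slbp, which binds the stem-loop, rose in all 3, by 1.44 ± 0.30, 1.51 ± 0.30 and 0.94 ± 0.30 (log2, SE). Npat, the activator of histone transcription, rose in wt by 0.61 ± 0.22 and in KO#1 by 0.95 ± 0.22, and its value labelled KO#2 was 0.18 ± 0.22 (log2, SE). Against wt, 3 of the 16 were higher and 3 lower in the KO#2-labelled libraries at 0 h, where 21.5% and 16.6% of all genes were called, and 0 and 4 at 24 h, where 21.3% and 16.0% were. Npat was higher at 0 h, by 0.96 ± 0.22, and Lsm10, a subunit of the U7 particle that cuts histone pre-mRNA, was lower at both times, by 1.06 ± 0.33 and 1.33 ± 0.32 (log2, SE).

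Of 17 S phase genes, 12 rose and 1 fell in wt, 11 rose in KO#1 and 9 rose in the KO#2-labelled libraries, with medians of 0.92, 1.02 and 0.66, where 26.0%, 20.1% and 12.7% of all genes were called higher. Pcna, the replication clamp, rose in all 3, by 1.46 ± 0.45, 1.65 ± 0.45 and 1.24 ± 0.44 (log2, SE), and Cdc6, which licenses origins, by 1.74 ± 0.30, 2.26 ± 0.30 and 1.89 ± 0.30. Against wt, 5 of the 17 were lower in the KO#2-labelled libraries at 24 h and 7 at 0 h, with medians of -0.64 and -0.58, where 16.0% and 16.6% of all genes were lower. For the histone genes the medians in the same comparisons were -2.33 and -1.16. Of 9 histone chaperones, 7 rose and 1 fell in wt and in KO#1, and 4 rose in the KO#2-labelled libraries. Nasp, which carries H3, H4 and H1, rose in all 3, by 1.73 ± 0.35, 1.47 ± 0.34 and 1.15 ± 0.34 (log2, SE).

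Replacement histones come from single genes outside these clusters, mostly with polyadenylated mRNAs, while H2afx also makes an mRNA that ends in the stem-loop. Of 11 tested, 4 rose and 4 fell in wt, 4 rose and 3 fell in KO#1, and 0 rose and 3 fell in the KO#2-labelled libraries. Over all genes these shares were 26.0% and 24.7% in wt, 20.1% and 20.6% in KO#1 and 12.7% and 13.3% labelled KO#2. H2afx rose by 1.00 ± 0.33 in wt and 1.35 ± 0.33 in KO#1, and H2afz by 1.2 ± 0.37 and 0.94 ± 0.37, while their values labelled KO#2 were -0.14 ± 0.33 and 0.10 ± 0.36 (log2, SE). Cenpa, the H3 of centromeres, rose by 0.92 ± 0.20 in wt and 0.76 ± 0.20 in KO#1, with 0.09 ± 0.20 labelled KO#2. The macroH2A gene H2afy fell in all 3, by 2.65 ± 0.28, 1.86 ± 0.27 and 1.92 ± 0.27, and so did H1f0, the H1 of resting cells, by 2.01 ± 0.26, 1.49 ± 0.26 and 1.46 ± 0.25 (log2, SE). Against wt at 24 h, 6 of the 11 were lower in the KO#2-labelled libraries and 0 higher, where 16.0% and 21.3% of all genes were called.

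Markers of other cell types moved with the time points and with the line. The summed level of 8 fibroblast markers was 110.0 to 390.0 CPM in wt at 0 h and 19.0 to 34.6 CPM at 24 h. It was 183 to 514 and 38.7 to 51.8 CPM in KO#1, and 331 to 898 and 71.0 to 219 CPM in the KO#2-labelled libraries. Of these markers, 6 fell in wt, 6 in KO#1 and 3 in the KO#2-labelled libraries, where 24.7%, 20.6% and 13.3% of all genes fell, and 1 rose in wt and KO#1. 1 of the 8, Dcn, was at 0 in all wt libraries at 0 h, and none was at 0 in all libraries of another group. The 4 epiblast-like markers rose in all 3 lines, and 4 of the 6 pluripotency markers fell in each. Against wt at 24 h, 4 of the 6 pluripotency markers were higher and 1 lower in the KO#2-labelled libraries, with a median log2 fold change of 0.97, and 6 of the 8 fibroblast markers were higher and 0 lower, with a median of 2.35. At 0 h, 1 pluripotency marker was higher and 3 lower there, and 4 fibroblast markers were higher. Of all genes 21.3% were higher and 16.0% lower at 24 h, and 21.5% and 16.6% at 0 h. Of 4 cycling markers, 3 rose in wt and in KO#1 and 0 in the KO#2-labelled libraries, against 26.0%, 20.1% and 12.7% of all genes. Their summed level was 460.2 to 810.4, 496 to 865 and 1015 to 1143 CPM at 0 h in wt, KO#1 and the KO#2-labelled libraries, and 1564 to 1688, 1331 to 1850.3 and 1324 to 1588 CPM at 24 h. Against wt, 3 of these 4 were higher in the KO#2-labelled libraries at 0 h, where 38 histone genes were lower, and none was called at 24 h. The part of feeder cells and of cycling cells in the histone differences was not tested.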

How the data were processed

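Stranded total-RNA libraries were sequenced in pairs from 18 samples. Per the methods of the study, the authors trimmed reads with Trim Galore, removed ribosomal RNA reads aligned the rest with STAR to GRCm38, marked duplicates with Picard and quantified genes with Salmon/StringTie. The deposited values are read counts per gene, whole numbers without normalization. The settings of the quantification, the annotation release and the use of strand and multi-mapping reads are not given in the sources used here, and the study's notes name DESeq2. The file held 45706 genes, of which 45143 IDs matched GENCODE M21, used here for positions, gene types and transcripts. No per-sample column was left unused.

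Counts were fitted with edgeR 4.0.16 in R 4.3.3 (quasi-likelihood test, TMM factors, 1 model of 6 groups with all 18 libraries, filterByExpr with a minimum count of 10, 16619 genes tested, Benjamini-Hochberg adjustment over all of them, threshold 0.05). All 70 histone genes passed the filter. DESeq2 1.42.0, other scalings, no filter, a replicate block, a stricter threshold of 0.01 and leaving out each library were alternatives. Leaving out both replicates 2 at 24 h in wt and KO#1 was chosen after seeing the data. Of the 153 pairs of libraries, 0 held identical values. p-values measure the spread between the 3 biological replicates of a clone. 3 counts were taken as the floor, which covers counting error only.

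Replicate numbers were checked by the correlation of deviations from group means. For KO#1 against wt at 24 h it was 0.48, 0.22 and 0.59, so the numbers were taken to pair those samples, and that source is the data and not a label. Libraries with different numbers were not compared in this way, so the pairing itself was not tested. The histone genes and the lists were chosen with earlier results of these data known. Named were all linker genes, the 2 core genes per class with the highest mean CPM, up to 4 called genes with the largest rise or fall in each comparison, genes called in a difference of responses, and called genes outside Hist1.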

Additional observations from a re-analysis of the deposited data

Results flagged for a closer look

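Hist2h2bb and Gm42743 were singled out because their 24 h responses differed between wt and the KO#2-labelled libraries in a test of that difference. The response of Hist2h2bb differed by -2.14 ± 0.49 and that of Gm42743 by -2.19 ± 0.51 (log2, SE, edgeR adjusted p = 0.035 and 0.036). Both lie in the Hist2 cluster and overlap on one strand, so they are not independent. Gm42743 had 75.4, 127 and 77.2 CPM in wt at 0 h and 326, 418 and 355 CPM at 24 h, while the KO#2-labelled libraries had 42.0, 101 and 74.4 CPM and 31.8, 63.3 and 91.0 CPM. The wt groups did not overlap between times and the groups labelled KO#2 did. Both calls were lost with library sizes alone (-1.53 and -1.58), with only the groups compared in the fit (-2.11 and -2.16) and without both replicates 2 at 24 h of wt and KO#1 (-2.06 for each).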

How the results depend on the processing

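Of 144 recomputed counts of called histone genes, 106 stayed within 1.5 times the value reported and 38 did not. Of the 484 recomputed fold changes of named genes, 74 lost their call and none turned direction. These genes had been picked as called in the same comparisons, so a turn of direction was unlikely from the start. With library sizes alone, the calls were 31 in wt and 38 in KO#1 at 24 h against 0 h, 0 labelled KO#2, and 0 for the difference between the responses labelled KO#2 and wt. Without a filter on low counts they were 5 labelled KO#2 at 24 h against 0 h, 11 and 17 for KO#1 against wt at 0 h and 24 h, and 2 and 39 for the differences of the responses of KO#1 and labelled KO#2 from wt. With only the groups compared in the fit they were 2 labelled KO#2 at 24 h against 0 h, 2 for KO#1 against wt at 0 h and 0 for the difference labelled KO#2. At an adjusted p under 0.01 these same 3 counts were 0, 2 and 0. The difference labelled KO#2 was 22 with DESeq2 and 1 with protein-coding genes only. Without both replicates 2 at 24 h of wt and KO#1 it was 0, and KO#1 against wt at 24 h was 3. The cause was not tested for any of these.

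Leaving out 1 library at a time gave 36 to 52 calls in wt and 48 to 60 in KO#1 at 24 h against 0 h, and 0 to 1 labelled KO#2. Against wt it gave 2 to 4 for KO#1 at 0 h, 4 to 7 at 24 h, 29 to 41 labelled KO#2 at 0 h and 58 to 64 at 24 h, and 0 to 15 for the difference in response labelled KO#2.

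With the replicate block, counts were 2 labelled KO#2 at 24 h against 0 h, 9 for KO#1 against wt at 0 h and 11 for the difference labelled KO#2. For KO#1 against wt at 24 h, where the numbers were taken to pair the samples, the block gave 9 calls in place of 6. Hist1h4m, the 1 gene called lower at 24 h in wt and in KO#1, was not called with the block (log2 -2.87 and -3.11). The other counts under the block lay within 1.5 times, and the correlations of same-numbered samples in the other comparisons ranged from -0.21 to 0.46, with at least 1 under 0.1 in each. Depth limits the genes of a few CPM, such as Hist1h2aj, Hist2h3c1 and Hist1h2bq.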
